A study of Mus musculus with 9 samples.

Results

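Control ileum was set against control jejunum on 6 of the 9 arrays of a mouse study of GATA4, a DNA-binding regulator found in the upper small intestine. The members are the 3 arrays whose titles name control ileum and the 3 whose titles name control jejunum, and 45037 of the 45101 probe sets on each, since 64 array controls were left out. All 6 mice were adult males of 6 to 8 weeks with the genotype Gata4loxP/+VilCre, so each carried Gata4 with loxP sites on 1 copy only, together with a villin-Cre transgene. Villin drives Cre in the intestinal epithelium, so in these controls too 1 copy of Gata4 was exposed to Cre there, and no mouse without Cre was analysed here. Jejunum was sampled 10 cm beyond the pyloric sphincter and ileum 1 cm before the cecum, from different animals for the 2 segments. The sources used here do not say which layers of the gut wall were taken. The other 3 arrays, from jejunum of Gata4loxP/-VilCre mutants, are compared with nothing here, but they entered the normalization, the filter on dim probe sets, the principal components and the estimate of the spread. With normalization, filter and fit on the 6 control arrays alone, 27720 probe sets were tested, of which 2649 were higher and 2422 lower in ileum.

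The small intestine changes its work along its length. The jejunum digests and absorbs most sugars, fats and peptides, and its enterocytes carry lactase, hexose carriers, fatty acid binding proteins and apolipoproteins for chylomicrons. The ileum reclaims bile acids through an apical sodium-coupled carrier, a cytosolic binding protein and a basolateral exporter, and it holds more of the antimicrobial Paneth cells and of the hormone cells that make peptide YY and glucagon-like peptides.

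A probe set is a group of short probes for 1 transcript. Levels are given as log2(intensity + 16) after quantile normalization, which gives all arrays the same distribution. The first value for each segment belongs to mouse 1, the next to mouse 2 and the last to mouse 3 of that segment. Mice with the same number in the 2 segments are not paired. A difference is the ileum mean minus the jejunum mean on that log2 scale, with its standard error, so a difference of 1 is 2-fold. The added 16 understates the change of dim transcripts. Where the mean of a segment lies under 4.95, the level of the filter on dim probe sets, the size of a difference depends on that floor and is no exact fold. A call is a limma adjusted p under 0.05, adjusted by the Benjamini-Hochberg method over 29307 probe sets.

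Before normalization the ileum arrays were dimmer. Their trimmed mean intensity was 96.8, 122 and 117, against 169, 150 and 172 on the jejunum arrays, a ratio of 0.684. The 18 hybridization spike probe sets, which do not come from the mice, stood at a ratio of 0.607. Brightness and segment cannot be told apart in this design. Arrays of 1 segment correlated at 0.971 or more and arrays of different segments at 0.930 to 0.947, and no pair of arrays was identical. The first principal component of all 9 arrays held 44.9% of the variance and placed the jejunum arrays between -56.6 and -43.0 and the ileum arrays between 45.1 and 51.7.

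The labels were checked against genes that define each segment. Fabp6, a cytosolic bile acid carrier, stood at 4.86, 4.64 and 5.02 in jejunum and at 13.70, 13.85 and 13.65 in ileum. Lct, which encodes lactase, stood at 12.74, 12.98 and 13.15 in jejunum and at 4.85, 5.10 and 4.45 in ileum. Each gene was bright in all mice of 1 segment and near the floor in all mice of the other. Villin itself (Vil1), present in absorptive cells of both segments, differed by only -0.06 ± 0.09 (limma adjusted p = 0.67), though it was called lower with no scaling of the arrays (0.041). Of 15 markers of the cecum and colon on the array, 3 (Car1, Hoxb13 and Hoxd13) did not pass the filter on dim probe sets, and the 12 measured ones are described with the neighbouring tissues. Gata4 was measured by 2 probe sets, both called lower in ileum. The brighter of them read 9.57, 9.49 and 9.52 in jejunum and 5.64, 5.30 and 5.20 in ileum, a difference of -4.15 ± 0.14 (limma adjusted p = 5.2e-08). It read 9.50 ± 0.11 (SD, n = 3) in the mutants, so it does not tell mutant from control jejunum. The sources used here do not say whether these probes lie inside the loxP-flanked part, and probes outside it would check nothing.

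Of the 29307 probe sets tested, 2449 (8.36%) were called higher in ileum and 2303 (7.86%) lower, together 16.2%. At least a 2-fold difference was seen in 700 of the higher calls (2.39%) and 811 of the lower calls (2.77%), together 5.16%. With this scaling the large differences leaned to jejunum: 39 probe sets rose and 81 fell at least 8-fold, and 5 rose and 9 fell at least 64-fold. Scaled on the spikes, 1018 were higher and 598 lower at 2-fold or more. Arrays of the 2 segments did not overlap at 10952 probe sets (37.4%), among them 4723 of the 4752 calls. Counted as genes, by the brightest probe set of each, 1216 of 13830 were higher (8.79%) and 1261 lower (9.12%), 17.9% in all and 5.84% at 2-fold or more, and the median difference of all genes was 0.03. In whole-tissue RNA, fewer cells of a type and less RNA per cell cannot be told apart. The balance of calls rests on the scaling: 51.5% of calls were higher in ileum after quantile normalization, 36.7% with arrays centred on their medians, 74.9% with arrays scaled on the spikes and 5.82% with no scaling. The median of all genes moved to -0.42 with no scaling and to 0.17 on the spikes. Leaving out jejunum mouse 2 left 1486 higher and 1376 lower calls, leaving out jejunum mouse 3 left 1495 and 1442, and leaving out ileum mouse 2 left 1520 and 1566. A value in brackets after a setting is the limma adjusted p under that setting.

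**Figure D1:**
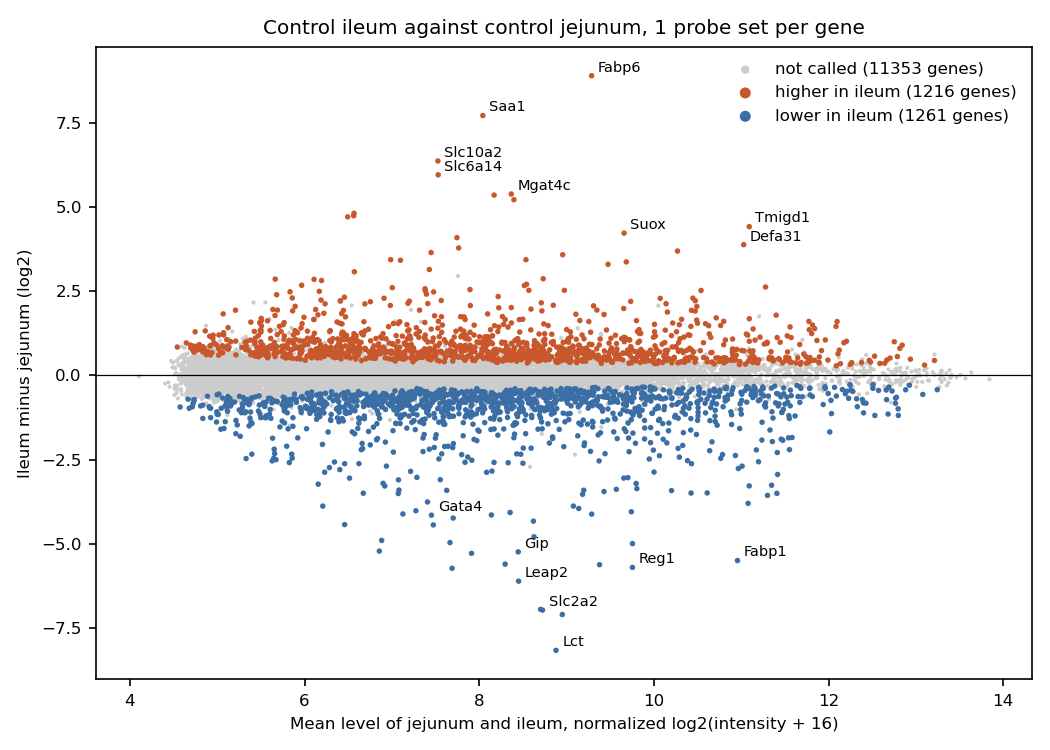
Difference between ileum and jejunum (log2, vertical axis) against the mean level of both segments (normalized log2(intensity + 16), horizontal axis), 1 point per gene by its brightest probe set. The 1216 genes called higher in ileum are orange, the 1261 called lower are blue and the rest are grey. Fabp6 at 8.90 and Lct at -8.16 are the extremes.

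The 15 largest rises were led by bile acid, defence and carrier genes. Fabp6 rose by 8.90 ± 0.11 (limma adjusted p = 4.4e-12), or by 7.48 to 10.00 over the alternative settings, with its jejunum mean under the filter level. Saa1, an acute-phase protein that gut epithelium also secretes, stood at 4.17, 4.28 and 4.11 in jejunum and at 11.25, 11.24 and 13.21 in ileum, with ileum mouse 3 the highest. Slc10a2, the apical sodium-coupled bile acid carrier, rose from 4.03, 4.58 and 4.42 to 11.05, 10.63 and 10.45. All 3 ileum arrays were far above all 3 jejunum arrays for each of these genes, and the jejunum values lay under the filter level of 4.95 for Saa1 and Slc10a2. Slc6a14, an amino acid carrier of broad range, stood at 4.63, 4.50 and 4.53 in jejunum and at 8.58, 11.31 and 11.63 in ileum, where mouse 1 was the lowest. The glycosyltransferase Mgat4c rose by 5.39 ± 0.20, the mitochondrial carrier family member Slc25a48 by 4.71 ± 0.38, the epithelial adhesion protein Tmigd1 by 4.42 ± 0.28 and sulfite oxidase, Suox, by 4.23 ± 0.12. Bex1 (4.09 ± 0.25), Ddah1, which breaks down methylarginines (3.78 ± 0.22), and the noncoding transcript U90926 (4.74 ± 0.81) complete the set with 4 genes described below, the phospholipase Pla2g4c, the gasdermin Gsdmc2, the goblet cell product Retnlb and the defensin Defa31. Of all probe sets, 7 were above 8 on every ileum array and under the filter level on every jejunum array, and those with a name belong to Saa1, Slc6a14, Slc10a2 and Slc25a48.

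The 15 largest falls held digestive, carrier, detoxifying and hormone genes. Lct differed by -8.16 ± 0.53 (limma adjusted p = 5.5e-06), or by -9.35 to -6.71 over the alternative settings, with its ileum mean under the filter level. Dnase1, a secreted nuclease, stood at 12.39, 12.44 and 12.66 in jejunum and at 5.36, 4.29 and 6.57 in ileum. Slc2a2, the basolateral glucose and fructose carrier GLUT2, went from 12.15, 12.25 and 12.21 to 6.48, 5.13 and 4.12. The jejunum mice were alike and the ileum mice varied, but the segments stayed far apart. Leap2, which encodes a peptide that blocks the ghrelin receptor, differed by -6.10 ± 0.29, and Reg1, a secreted C-type lectin of the Reg family, by -5.70 ± 0.33. Enpp3, an ectoenzyme that splits nucleotides, differed by -5.62 ± 0.77, and Afp, alpha-fetoprotein, by -4.96 ± 0.17. Otop3, of a proton channel family, stood at 9.29, 9.47 and 9.62 in jejunum and at 4.12, 4.54 and 4.09 in ileum. Otop3, Bbox1 and Onecut2 supply all 5 probe sets that were above 8 on every jejunum array and under the filter level on every ileum array. The other falls in this set, Cyp2b10, Cyp2c29, Ugt2a3, Adh4, Adh6a, Fabp1 and Gip, are described with their pathways. Each of these 30 genes and Gata4 kept its direction under all 23 alternative settings, and all but Pla2g4c also kept the call.

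**Figure D2:**
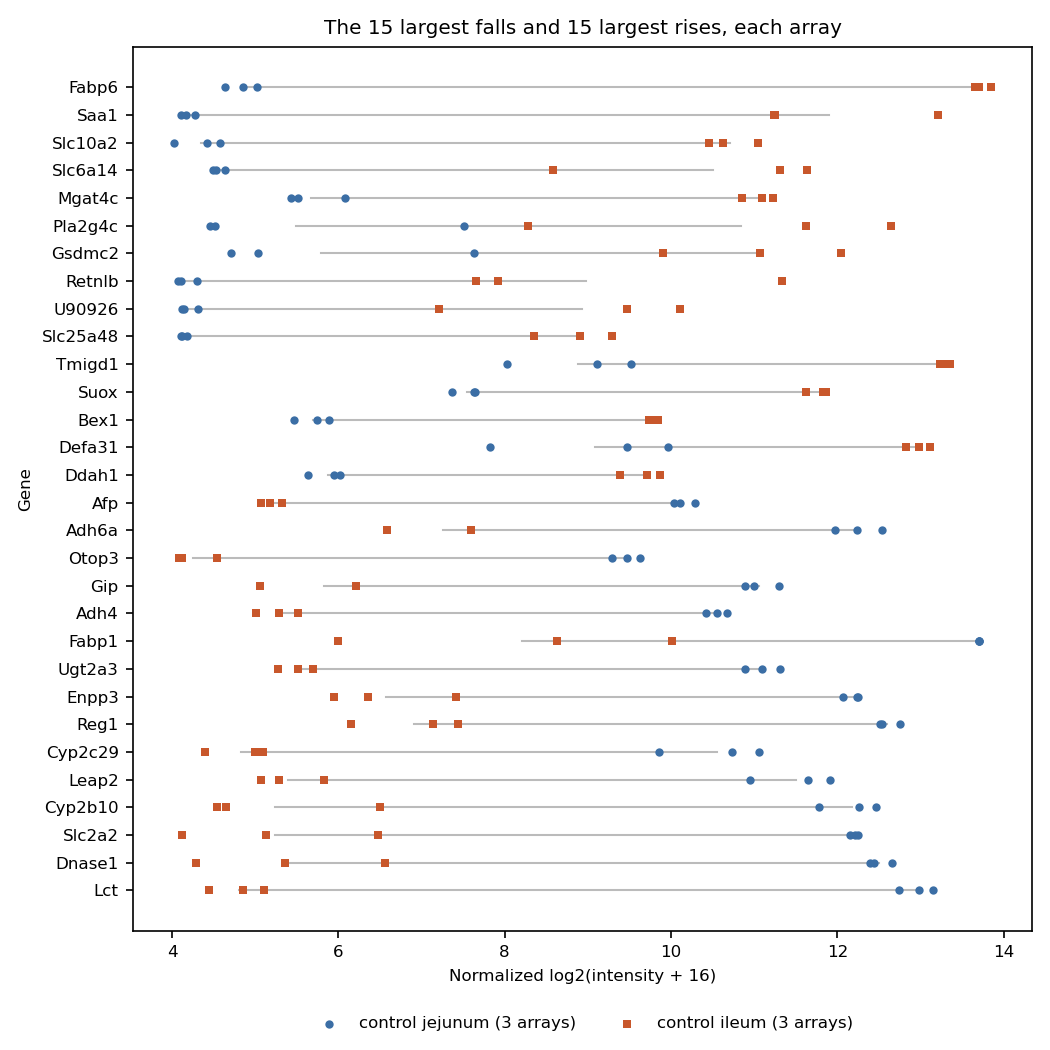
Levels of the 15 genes with the largest rises and the 15 with the largest falls on each array (normalized log2(intensity + 16), horizontal axis), 1 row per gene. Blue circles are the 3 control jejunum arrays, orange squares the 3 control ileum arrays, and the grey line joins the group means. The groups do not overlap in any row, and Pla2g4c, Retnlb and Fabp1 had the largest standard deviations within a segment, in ileum.

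Stretches of sequence upstream of Lct and Fabp6 are shown because these genes mark the 2 ends of the difference, and that of Hmgcs1 because it belongs to the sterol genes described below. They are the 250 bases before the start of each gene in RefSeq's annotation of mouse build GRCm38.p6, 5′ to 3′ on the gene's strand. For Lct (chr1:128328319-128328568, minus strand) the capitals mark matches on either strand to AGATAA or to TGATAA, or to either of them with G as the last base, the letters that GATA factors bind. They begin at bases -101 and -90 from the start:
Lct: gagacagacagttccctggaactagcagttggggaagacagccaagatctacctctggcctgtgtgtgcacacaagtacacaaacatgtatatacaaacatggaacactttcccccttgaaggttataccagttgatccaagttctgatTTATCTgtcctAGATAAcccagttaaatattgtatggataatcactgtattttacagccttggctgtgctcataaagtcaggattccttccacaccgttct
For Fabp6 (chr11:43601563-43601812, minus strand) the capitals mark a match to an inverted repeat of AGGTNA with 1 base between its arms, the form of site to which the bile acid receptor FXR binds. It begins at base -142 from the start. The motif was chosen after this sequence had been seen:
Fabp6: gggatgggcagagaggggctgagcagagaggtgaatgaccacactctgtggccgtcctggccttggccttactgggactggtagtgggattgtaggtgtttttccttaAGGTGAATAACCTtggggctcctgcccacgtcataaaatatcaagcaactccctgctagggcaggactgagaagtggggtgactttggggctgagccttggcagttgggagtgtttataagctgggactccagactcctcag
For Hmgcs1 (chr13:119690101-119690350, plus strand) the capitals mark 1 match to TCACNCCAC, the sterol response element, and 3 matches to CCAAT, the NF-Y site, on either strand:
Hmgcs1: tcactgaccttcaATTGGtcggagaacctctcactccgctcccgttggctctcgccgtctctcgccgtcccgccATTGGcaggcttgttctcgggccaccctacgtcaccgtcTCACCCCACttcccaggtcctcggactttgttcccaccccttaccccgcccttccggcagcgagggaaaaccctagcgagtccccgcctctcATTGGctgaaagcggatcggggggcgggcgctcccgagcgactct
The inverted repeat stood in 6 of 32851 mouse promoters of this length (0.0183%), the sterol response element in 1.05%, CCAAT in 33.8% and the GATA letters in 26.5%. The inverted repeat had 0 matches upstream of Slc10a2, Slc51a, Slc51b and Nr0b2, other bile acid genes that were searched. Among promoters of genes called at least 2-fold, the GATA letters stood in 28.6% of 455 promoters of lower genes and in 20.0% of 370 promoters of higher genes, beside 18.2% of the promoters of all tested genes. CAAAGTCCA, which HNF4 binds, stood in 1.76% of the lower, 0.541% of the higher and 0.431% of all tested genes' promoters. The promoters matched to sterol synthesis genes were 10 of 9 genes called higher, not including Sqle, Fdps and Fdft1, and 8 of 6 genes not called. The sterol response element stood in 1 of the 10, that of Hmgcs1, and in 0 of the 8, and CCAAT in 9 of the 10 and 6 of the 8. The sterol response element also had 1 match in the Fabp6 stretch above, left there in small letters. These are counts of letters, with no test.

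Sugar digestion and transport fell across the list. Of 10 measured hexose carriers and fructose enzymes, 9 were lower in ileum and 0 higher, with a median difference of -2.85. Beside GLUT2, the fructose carrier Slc2a5 stood at 11.37, 11.14 and 11.14 in jejunum and at 8.74, 8.14 and 7.69 in ileum. Slc5a4b, a relative of the sodium-glucose carrier, fell by 4.32 ± 0.50 on the log2 scale. The enzymes of fructose breakdown and gluconeogenesis fell with them, with differences of -2.08 ± 0.16 for Khk (fructokinase), -1.60 ± 0.19 for Tkfc, -2.87 ± 0.24 for Fbp1 (fructose bisphosphatase) and -3.10 ± 0.36 for G6pc (glucose-6-phosphatase). Slc5a1, the apical sodium-glucose carrier SGLT1, differed least among the calls, with 13.00, 12.96 and 12.91 in jejunum and 12.74, 12.43 and 12.31 in ileum (difference -0.46, limma adjusted p = 0.018). Its call was lost without jejunum mouse 1 (0.056) or 2 (0.060), without ileum mouse 2 (0.065) or 3 (0.065), with trimmed mean scaling (0.060), without an intensity trend (0.058) and with scaling on the spikes (0.39).

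Brush border enzymes split. Of 14 measured, 7 were lower and 3 higher in ileum, with a median of -0.46. Lower with Lct were Tmprss15, enteropeptidase, which activates trypsinogen (8.28, 8.48 and 7.68 in jejunum, 4.49, 4.28 and 4.04 in ileum), Treh, trehalase (-3.49 ± 0.35), Ace, angiotensin-converting enzyme (-2.42 ± 0.27), the peptidase Mme (-1.92 ± 0.14) and maltase-glucoamylase, Mgam (-1.11 ± 0.14). Higher were the meprin subunit Mep1a, with 9.84, 9.76 and 10.30 in jejunum and 12.66, 12.66 and 12.45 in ileum, and the dipeptidase-like Naaladl1 (1.60 ± 0.17). No array of a segment crossed into the range of the other for any of these 8 enzymes. Amino acid and peptide carriers were divided as well, with 7 lower and 3 higher of 16. Slc36a1, a proton-coupled amino acid carrier, fell by 2.59 ± 0.13, while Slc1a1, the carrier for glutamate, rose from 7.82, 7.65 and 7.65 to 10.84, 9.96 and 9.91. The neutral amino acid carrier Slc6a19 read 12.01, 12.06 and 12.01 in jejunum and 12.30, 11.82 and 11.11 in ileum, where the segments overlapped (limma adjusted p = 0.44). With no scaling it was called lower (0.016).

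Fat uptake and chylomicron assembly was lower at 14 of 22 measured genes and higher at 1, with a median of -0.85. Fabp1, the fatty acid binding protein shared with liver, read 13.70 in each jejunum mouse and 10.02, 8.63 and 5.99 in ileum. The ileum mice were thus far apart from each other, all below jejunum. The equal jejunum values are 1 rank near the top of the scale, shared by the 3 arrays after quantile normalization. They do not show how alike those mice were. Cd36, a fatty acid receptor, stood at 10.20, 10.33 and 10.63 in jejunum and at 5.39, 5.69 and 7.89 in ileum, with ileum mouse 3 the highest. Among apolipoproteins, the differences were -3.79 ± 0.31 for Apoc2, -3.56 ± 0.32 for Apoc3, -3.50 ± 0.53 for Apoa4 and -1.19 ± 0.13 for Apob. Apoa1 read 13.90 on each jejunum array and 13.85, 13.90 and 13.61 on the ileum arrays, at the top of the scale. Mttp, which loads lipid onto apolipoprotein B, fell by 1.68 ± 0.14, and so did the triglyceride-forming enzymes Dgat1 (-0.86 ± 0.10), Dgat2 (-1.62 ± 0.19) and Mogat2 (-0.90 ± 0.11). The 1 gene that rose was Clps, colipase, with 9.40, 9.47 and 9.54 in jejunum and 12.35, 11.38 and 10.81 in ileum. Colipase is best known from pancreas, and it was the only 1 of 8 measured pancreatic acinar genes to be called. Apoa1 was called lower with no scaling (0.014), as were 18 of the 22 genes.

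Sterols went the other way. Of 19 measured genes of cholesterol synthesis, 12 were higher in ileum and 0 lower, all 12 at least 2-fold, with a median of 1.32. Squalene epoxidase, Sqle, read 9.05, 8.92 and 9.25 in jejunum and 11.20, 11.05 and 11.36 in ileum. Squalene synthase, Fdft1, rose by 1.88 ± 0.21, farnesyl diphosphate synthase, Fdps, by 1.65 ± 0.23, lanosterol demethylase, Cyp51, by 1.63 ± 0.19 and Idi1, an isomerase of the mevalonate pathway, by 1.35 ± 0.18. Hmgcs1, which makes the precursor of mevalonate, read 11.09, 11.34 and 11.62 in jejunum and 12.49, 12.18 and 12.48 in ileum. In each of these genes the lowest ileum mouse was above the highest jejunum mouse, and jejunum mouse 3 was the highest of its segment. The last step to cholesterol was not part of this: Dhcr7 differed by -0.06 ± 0.19, and the regulator Insig1 read 7.95, 8.16 and 9.34 in jejunum and 9.25, 8.15 and 9.32 in ileum. With no scaling 10 of the 19 were still called higher and 1 was called lower, and Hmgcs1 missed the threshold (0.053). Genes of sterol uptake and export did not move together, with 1 higher and 2 lower of 9, or 5 lower without jejunum mouse 3. Mylip, which marks the LDL receptor for breakdown, rose by 1.61 ± 0.21 and the receptor Scarb1 fell by 1.41 ± 0.19. Npc1l1, the cholesterol carrier of the brush border, read 11.82, 12.10 and 12.22 in jejunum and 11.47, 11.49 and 11.32 in ileum, with no overlap but a limma adjusted p of 0.056. It was called lower without mutant mouse 1 (0.037) or 3 (0.0039), with no scaling (0.0049), with normalization and fit (0.0071) or fit alone (0.0070) on the control arrays, with array weights (0.013) and with a stricter filter (0.0495).

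Bile acid genes differed most in the uptake route. Of 11 measured, 5 were higher, all at least 2-fold, and 4 lower, or 2 lower without jejunum mouse 2 or ileum mouse 2 and on the spikes. After Slc10a2 at the brush border and Fabp6 in the cytosol, both subunits of the basolateral exporter rose. Slc51a read 11.11, 10.75 and 10.65 in jejunum and 12.25, 12.24 and 12.35 in ileum, and Slc51b 9.69, 9.26 and 9.15 against 11.50, 11.55 and 11.70. Nr1h4, which encodes the bile acid receptor FXR, rose by 2.07 ± 0.14. Carrier, binding protein, exporter and receptor were thus each higher in all 3 ileum mice than in any jejunum mouse. Fgf15, the hormone that FXR induces and that signals bile acid return to the liver, read 4.11, 4.15 and 4.13 in jejunum and 6.70, 4.69 and 5.43 in ileum. Its ileum values were all higher but uneven (1.48 ± 0.57, limma adjusted p = 0.10), and it was called without mutant mouse 3 (0.030), in a fit of the control groups alone (0.044) and with a pseudocount of 1 (0.0085). Lower were Cyp3a11, a P450 that also acts on bile acids (-3.26 ± 0.51), and the apical export pump Abcc2 (-1.76 ± 0.34). Uptake of vitamin B12 with intrinsic factor, another task of the ileum, showed 0 calls among 6 genes in limma, of which 1, Abcc1, had an unadjusted p under 0.05 (0.023). Abcc1 was called higher on the spikes (0.037), and Tcn2, a B12 transport protein, was called lower with no scaling (0.013). Cubn, the receptor for B12 with intrinsic factor, read 10.72, 11.10 and 11.80 in jejunum and 11.60, 11.74 and 10.78 in ileum. Its partner Amn read 10.96, 10.58 and 11.27 against 10.97, 10.93 and 10.80. Both genes overlapped fully between the segments.

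Vitamin uptake was lower at 8 of 13 genes and higher at 2. Slc46a1, the proton-coupled folate carrier, stood near 11 in all 3 jejunum mice and at 6.33, 6.54 and 5.83 in ileum. Slc23a1, a vitamin C carrier, fell by 3.28 ± 0.19, and Slc19a3, a thiamine carrier, differed by -2.58 ± 0.38. Retinoid handling fell with them, with -2.94 ± 0.42 for Rbp2, a retinol binding protein of enterocytes, -1.14 ± 0.21 for Lrat, which esterifies retinol, and -4.11 ± 0.39 for the retinol dehydrogenase Rdh7. In contrast, Slc52a3, the riboflavin carrier, rose from 8.32, 8.45 and 8.35 to 10.60, 10.19 and 10.16, and Bco1, which cleaves beta-carotene, rose by 1.74 ± 0.24. Among 18 genes of calcium, phosphate and metal uptake, only Slc34a2 and Atp2b1 were called, both higher, although 7 were called lower with no scaling. Slc34a2, the sodium-phosphate carrier of the brush border, read 7.30, 7.07 and 6.08 in jejunum and 9.88, 9.97 and 10.90 in ileum. The calcium pump Atp2b1 rose by 1.18 ± 0.18. The vitamin D-dependent calcium binding protein S100g read 8.51, 7.40 and 6.71 in jejunum and 6.63, 7.43 and 7.23 in ileum, with a wide overlap.

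Detoxification had the most lower calls of any list by number, though a larger share of the hexose list was lower (9 of 10). Of 29 measured genes of xenobiotic metabolism, 21 were lower, 19 of them at least 2-fold, and 2 higher, with a median of -1.88. Cyp2b10, a P450 induced through the receptor CAR, stood at 11.78, 12.47 and 12.26 in jejunum and at 6.51, 4.65 and 4.54 in ileum. Nr1i3, which encodes CAR, read 8.86, 8.52 and 8.96 in jejunum and 5.92, 5.10 and 5.12 in ileum, without overlap. Nr1i2, which encodes the related receptor PXR, did not differ beyond its error (0.02 ± 0.15). The difference was -5.72 ± 0.74 for Cyp2c29, -5.60 ± 0.17 for the glucuronyl transferase Ugt2a3 and -3.28 ± 0.39 for the alcohol dehydrogenase Adh1. Cyp1a1, induced through the aryl hydrocarbon receptor, read 8.09, 9.89 and 12.65 in jejunum and 6.98, 6.08 and 5.15 in ileum (limma adjusted p = 0.0089), and the jejunum mice alone spanned more than the gap between the segments. The efflux pump Abcg2 was higher, by 0.99 ± 0.10, a call lost with no scaling (0.054).

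Energy metabolism was lower in part. Fatty acid oxidation had 11 of 18 genes lower and 0 higher, with a median of -0.57, though only 3 fell 2-fold or more. Acaa1b, a peroxisomal thiolase, stood at 9.36, 10.36 and 9.73 in jejunum and at 5.93, 5.35 and 5.48 in ileum. Its mitochondrial counterpart Acaa2 fell by 1.70 ± 0.12. Leaving out ileum mouse 3 left 7 of the 11 calls, and 16 genes were called with no scaling. In the respiratory chain 6 of 21 genes were lower and 0 higher, with a median of -0.21. Only Cox7a1, a subunit of cytochrome oxidase best known from muscle, fell 2-fold or more (-1.41 ± 0.25), while smooth muscle markers rose. That count fell to 3 without jejunum mouse 1, jejunum mouse 2, ileum mouse 1 or ileum mouse 2, to 1 with scaling on the spikes, and rose to 21 with no scaling. Of 13 genes of citrulline and the urea cycle, 4 were lower and 2 higher. Arg2, mitochondrial arginase, fell by 2.21 ± 0.23 and Prodh, proline dehydrogenase, rose by 1.66 ± 0.18. Cps1, the first enzyme of the cycle, read 11.74, 11.91 and 11.54 in jejunum and 11.35, 11.75 and 11.74 in ileum and was called lower only with no scaling (0.012).

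**Figure D3:**
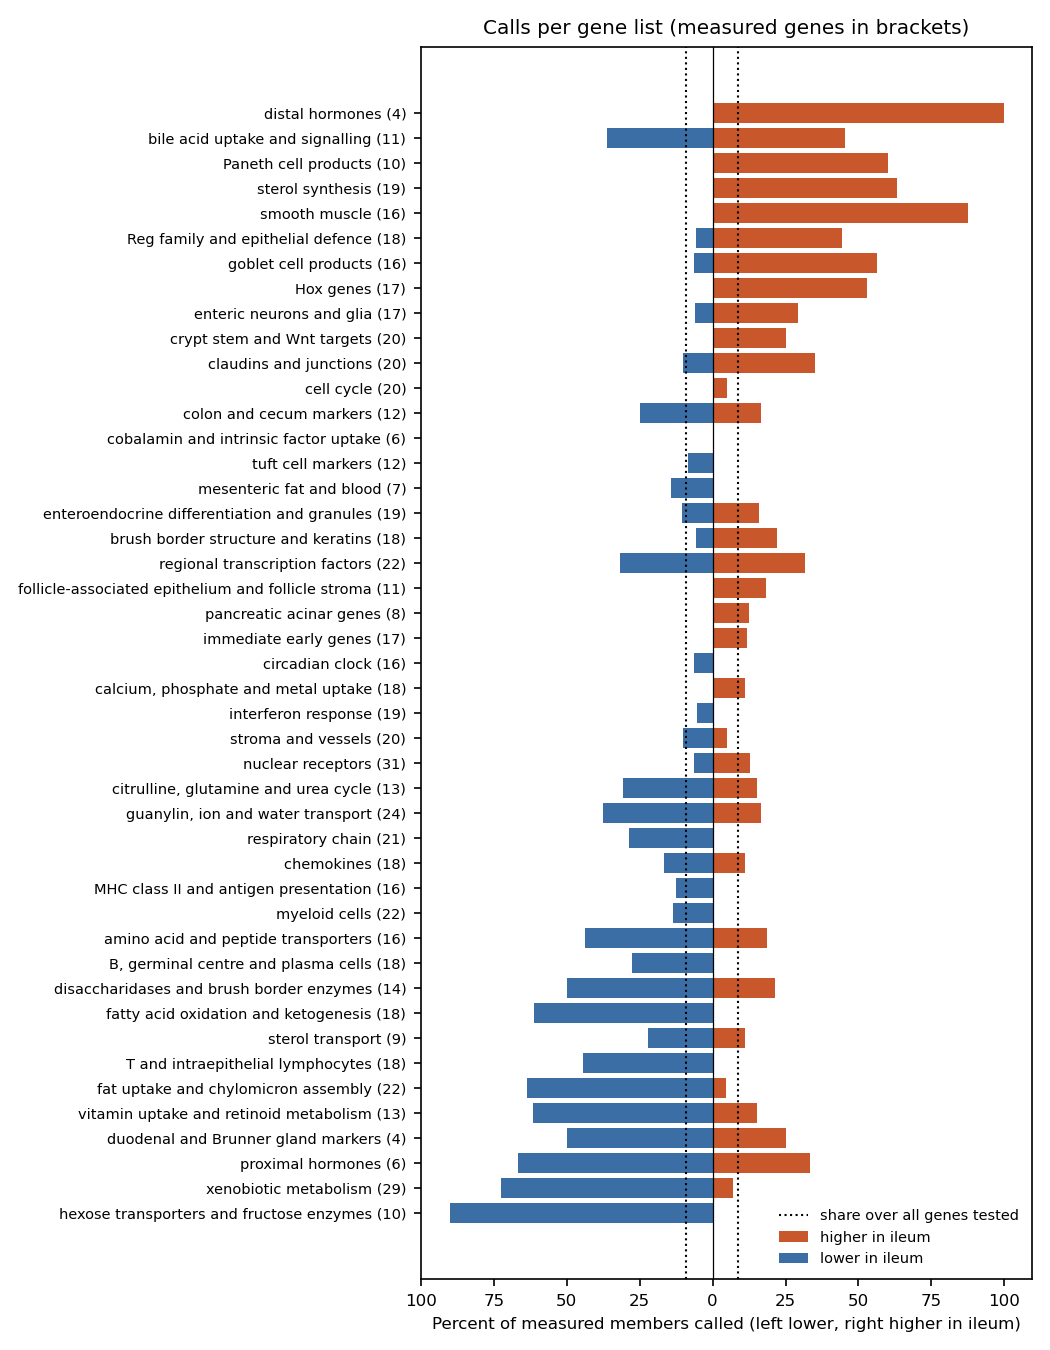
Percent of the measured genes of each of 45 gene lists that were called higher in ileum (orange, to the right) or lower (blue, to the left), ordered by the median difference of the list. The number of measured genes is in brackets and dotted lines mark the shares over all genes, 8.79% higher and 9.12% lower. The bars of Hox genes, distal hormones and colon markers include genes that passed the filter only through ileum. Hexose carriers and xenobiotic genes lie at the foot, and distal hormones, bile acid genes, Paneth cell products, sterol synthesis and smooth muscle at the top.

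Transcription factors known for regional expression moved in both directions, 7 higher and 7 lower of 22, or 2 higher and 11 lower with no scaling. Gata4 fell with Onecut2, which read 8.61, 9.01 and 8.40 in jejunum and 4.61, 4.03 and 4.10 in ileum. Zfpm1, a cofactor that binds GATA factors, fell from 9.06, 8.84 and 9.01 to 6.57, 6.55 and 6.76. Pdx1, a factor of the duodenum and pancreas, differed by -2.33 ± 0.24, and Creb3l3, a membrane-bound factor of lipid metabolism, by -2.62 ± 0.39. The other GATA genes of the gut epithelium differed much less. Gata6 read 9.88, 9.84 and 9.89 in jejunum and 9.14, 8.93 and 8.68 in ileum (limma adjusted p = 0.0014), and Gata5 8.62, 8.76 and 8.86 against 8.92, 8.53 and 8.44, with overlap (0.65). Higher in ileum were Osr2, a zinc finger factor, which rose from 7.25, 6.78 and 7.87 to 10.17, 10.26 and 10.07, and the forkhead factor Foxa1 (1.97 ± 0.16). The caudal factors, which pattern the hindgut, differed from each other: Cdx1 was higher by 0.92 ± 0.14, and Cdx2 read 10.10, 10.06 and 10.15 in jejunum and 10.39, 10.32 and 10.11 in ileum (limma adjusted p = 0.34). The call of Cdx1 was lost with no scaling (0.17), where Gata5 was called lower (0.014).

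Homeobox genes of the Hox clusters mark position along the body axis. Of 17 measured, 9 were higher in ileum and 0 lower, with a median of 0.57, and 13 more of the 30 on the array were too dim to test. Some, such as Hoxc8, passed the filter only through ileum, where they are high, so the count and the median are a description and give no support. The median was 0.27, 0.30 and 0.22 without ileum mouse 1, 2 or 3, with 15 genes measured each time. Hoxc8 stood at 4.15, 4.09 and 4.46 in jejunum and at 7.53, 6.70 and 7.06 in ileum. Hoxb9 read 5.06, 4.72 and 4.98 against 7.51, 7.27 and 7.47, and Hoxb6 5.53, 5.06 and 5.32 against 7.30, 7.93 and 7.32. Hoxb5 rose by 1.51 ± 0.21. The ileum mice were above the jejunum mice at each of these 4 genes, which were the 4 that reached a 2-fold difference. Hox genes are active in the muscle and connective tissue of the gut wall as well as in its epithelium. Smooth muscle markers rose in the same arrays, by a median of 1.01 at 16 genes, and their part in the Hox difference was not tested. Leaving out 1 mouse left between 4 (ileum mouse 3) and 7 (jejunum mouse 3) calls, with 6 without jejunum mouse 1 or 2 and 5 without ileum mouse 1 or 2, and no scaling left 5 higher and 2 lower.

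Gut hormones changed by region. All 4 measured distal hormones were higher in ileum. Pyy, peptide YY, read 7.33, 6.71 and 7.50 in jejunum and 9.88, 9.83 and 9.84 in ileum. Gcg, the precursor of the glucagon-like peptides, read 8.53, 8.53 and 8.30 against 10.05, 9.99 and 10.13, and Nts, neurotensin, rose by 1.51 ± 0.15. The ileum mice were close to each other and all above jejunum. Insl5, a peptide of the distal gut, rose by 0.87 ± 0.18, and its ileum values, 5.55, 5.34 and 5.17, were little above the filter level. Without any 1 ileum mouse it was too dim to be tested. Insl5 thus passed the filter only through ileum, where it is high, so its call gives no support. Of 6 measured proximal hormones, 4 were lower and 2 higher. Gip, glucose-dependent insulinotropic peptide, stood between 10.89 and 11.30 in jejunum and at 6.21, 5.06 and 6.22 in ileum. Ghrl, ghrelin, read 8.61, 8.68 and 9.18 against 5.68, 4.87 and 5.42, and cholecystokinin, Cck, differed by -2.58 ± 0.16. Somatostatin, Sst, fell by 1.04 ± 0.21. Secretin, Sct, was higher by 0.73 ± 0.14, a call lost with no scaling (0.43), and galanin, Gal, which nerves also make, by 1.37 ± 0.25. Genes common to hormone cells as a whole had a median difference of 0.05, with 3 higher and 2 lower of 19. That is 26.3% called, beside 17.9% of all genes. Only 1 was higher without jejunum mouse 1 or ileum mouse 2. The granule protein Chgb fell by 1.03 ± 0.15. Chga read 7.65, 7.64 and 8.00 in jejunum and 7.56, 7.49 and 7.33 in ileum, and the progenitor factor Neurog3 differed by -0.22 ± 0.18. Both were called lower with no scaling (0.013 and 0.023).

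Secretory and defence genes were higher. Of 10 measured Paneth cell products 6 were higher and 0 lower, with a median of 1.42. The median was 0.90 without ileum mouse 1, 4 were higher with no scaling, and 1 was lower without ileum mouse 3. Defa31, an alpha-defensin, stood at 9.47, 9.97 and 7.82 in jejunum and at 13.11, 12.82 and 12.98 in ileum. Its probes may also read other, near-identical defensins. Mmp7, which activates defensins, rose by 1.91 ± 0.26, Nupr1 by 2.53 ± 0.24 and Habp2 by 1.85 ± 0.17. Lysozyme, Lyz1, read 13.61, 13.59 and 13.57 against 13.59, 13.61 and 13.85, again at the top of the scale. Its paralogue Lyz2, which macrophages also make, was not called (0.40, limma adjusted p = 0.27). Scaled on the spikes, Lyz1 was called higher (0.013).

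Goblet cell products were higher at 9 of 16 genes and lower at 1, with a median of 0.66. The main mucin, Muc2, read 12.45, 12.77 and 12.59 in jejunum and 13.09, 13.09 and 12.68 in ileum, and overlapped (limma adjusted p = 0.097). It was called without ileum mouse 3 (0.029), with trimmed mean scaling (0.017), cyclic loess (0.039), array weights (0.034) and scaling on the spikes (0.011). The factors that drive secretory fate rose, Atoh1 by 1.22 ± 0.17 and Spdef by 1.13 ± 0.14, as did the chaperone Agr2 (0.97 ± 0.12) and the kallikrein Klk1 (1.54 ± 0.26). Retnlb, a peptide that goblet cells release on contact with microbes and parasites, was at 4.31, 4.07 and 4.10 in jejunum and at 11.34, 7.66 and 7.92 in ileum, with mouse 1 far above the other 2.

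Epithelial defence genes varied among the ileum mice. Of 18 measured, 8 were higher and 1, Reg1, lower. Saa2 rose by 2.82 ± 0.48. Fut2, the fucosyl transferase that microbes induce, read 4.41, 4.82 and 4.90 in jejunum and 8.09, 6.41 and 6.53 in ileum, with mouse 1 the highest. Duoxa2, the maturation factor of an epithelial oxidase, read 6.38, 4.78 and 4.36 in jejunum and 8.04, 6.62 and 7.23 in ileum. Tifa, an adaptor of innate signalling, rose from 7.67, 8.01 and 7.60 to 9.23, 9.51 and 10.28, with ileum mouse 3 the highest. All 3 genes were separate between segments, and no single mouse was highest in each. The lectin Reg3b read 12.93, 13.40 and 12.37 in jejunum and 13.42, 13.55 and 13.61 in ileum (limma adjusted p = 0.053) and was called higher without jejunum mouse 2 (0.0064), with arrays centred on their medians (0.031), with trimmed mean scaling (0.019), cyclic loess (0.040), a stricter filter (0.047) and array weights (0.023), and on the spikes (0.0062). The list's higher calls fell to 5 without jejunum mouse 1. Of 12 tuft cell genes, 0 rose and only Ltc4s, leukotriene C4 synthase, fell (-1.86 ± 0.28).

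Water, ion and junction genes shifted within families. Of 24 ion and water genes, 9 were lower and 4 higher. The aquaporin Aqp3 fell from 8.53, 8.44 and 8.94 to 6.22, 5.63 and 5.52, and carbonic anhydrase 2, Car2, by 2.14 ± 0.27. The peptide hormones of the guanylate cyclase C receptor parted. Guanylin, Guca2a, read 11.01, 10.73 and 11.69 in jejunum and 12.81, 12.45 and 12.35 in ileum, and uroguanylin, Guca2b, 13.26, 13.19 and 13.42 against 12.68, 12.27 and 11.95. Among 20 claudin and junction genes, 7 were higher and 2 lower. Cldn2, which forms pores for sodium, read between 8.71 and 9.07 in jejunum and 10.85, 11.35 and 11.45 in ileum, while Cldn15, which also does, fell by 0.88 ± 0.13. Cldn8, a barrier claudin, was the other gene higher at least 2-fold (1.58 ± 0.44, limma adjusted p = 0.033), with 4.11, 4.95 and 4.72 in jejunum and 4.97, 6.35 and 7.21 in ileum. It lost its call in 8 settings, with p between 0.056 and 0.10, among them without any 1 control mouse but ileum mouse 1. The list held 2 without jejunum mouse 1 or ileum mouse 2, 3 without jejunum mouse 2 or 3, 4 without ileum mouse 3 and 2 with arrays centred on their medians, and its median of 0.32 was -0.23 with no scaling.

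Structural genes of the brush border and keratins were near level, with 4 higher and 1 lower of 18 and a median of 0.04, which was -0.40 with no scaling, close to -0.42 for all genes. Krt18 (1.14 ± 0.12) and the tetraspanin Tspan8 (1.36 ± 0.11) rose. Crypt stem cell and Wnt target genes had 5 higher and 0 lower of 20, with a median of 0.46, or -0.01 with no scaling, where 4 were lower and 0 higher. The stem cell marker Lgr5 read 6.61, 7.03 and 6.38 in jejunum and 6.91, 7.28 and 7.23 in ileum. It was called without jejunum mouse 2 (0.043), with array weights (0.043) and on the spikes (0.040). Olfm4 read 11.75, 12.29 and 12.13 against 11.51, 11.73 and 12.17 and was called lower with no scaling (0.011). The higher calls of the list numbered 1 without jejunum mouse 3, 2 without any 1 ileum mouse and 3 without jejunum mouse 1. Of 20 cell cycle genes, 1 was higher and 0 lower, and that call held without ileum mouse 1 but not without any other control mouse, with a median of 0.17 that became -0.34 with no scaling.

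Lymphocyte genes were lower in ileum. Of 18 measured genes of T cells and intraepithelial lymphocytes, 8 were lower and 0 higher, with a median of -0.85. Itgae, the integrin that holds these cells in the epithelium, read 9.21, 9.22 and 8.90 in jejunum and 7.52, 8.19 and 7.41 in ileum. Ccl5 read 10.84, 10.64 and 10.66 against 8.54, 10.01 and 9.70, and Cd7 9.07, 8.79 and 8.58 against 6.87, 7.92 and 7.77. Cd3e, the invariant chain of the T cell receptor, read 8.03, 7.62 and 7.26 in jejunum and 4.71, 7.17 and 7.07 in ileum (limma adjusted p = 0.11), and was called lower only with no scaling (0.015). Ileum mouse 1 was the lowest for 3 of these 4 genes, and the mean over the list was 6.43 in that mouse against 7.32 and 7.35 in the other ileum mice and 7.50 to 8.01 in jejunum. Without that mouse 5 of the genes were called lower and the median was -0.49. Without jejunum mouse 1 there were 3, without jejunum mouse 2 there were 4, without jejunum mouse 3 there were 6 and without ileum mouse 2 or 3 there were 9. Of 18 B and plasma cell genes 5 were lower and 0 higher, but 0 without jejunum mouse 2, 1 without jejunum mouse 1, 2 without ileum mouse 1 and 3 without ileum mouse 2 and 11 with no scaling, and the median of -0.43 was -0.68 without ileum mouse 3. Immunoglobulin A, Igha, differed by -0.07 ± 0.09. Of 22 myeloid genes 3 were lower, among them the dendritic cell integrin Itgax (-1.17 ± 0.19), with 1 lower without ileum mouse 1 or 2 and 12 with no scaling. Of 16 genes of MHC class II and antigen presentation 2 were lower, or 9 with no scaling. The myeloid and MHC shares, 13.6% and 12.5%, were near the 9.12% of all genes called lower. Of 11 genes of the epithelium and stroma over lymphoid follicles, 2 were higher, led by Marcksl1 (2.71 ± 0.21), which other cells also express. Gp2, the defining M cell marker of the list, was not called (0.17, limma adjusted p = 0.72). The sources used here do not say whether Peyer's patches were in the samples.

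Muscle genes were higher in ileum. Of 16 smooth muscle genes, 14 were higher and 0 lower, with a median of 1.01. Actg2, enteric smooth muscle actin, read 9.71, 10.29 and 9.99 in jejunum and 11.78, 11.73 and 11.29 in ileum, and Tagln, transgelin, 9.99, 10.73 and 10.16 against 11.48, 11.39 and 11.16. The mean over the list was 9.04, 9.68 and 9.33 in the jejunum mice and 10.50, 10.38 and 10.05 in the ileum mice, without overlap. The count fell to 8 without jejunum mouse 3 and to 2 with no scaling, where the call of Tagln was lost as well (0.087) and the median was 0.48 against -0.42 for all genes. Of 17 neuron and glia genes, 5 were higher and 1 lower. The neurofilament Nefl rose by 1.11 ± 0.19 and the synaptic Snap25 by 1.11 ± 0.24. Of 20 genes of stroma and vessels, 1 was higher and 2 lower, with a median of -0.09. The part of the muscle layer in the differences of other genes was not tested.

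**Figure D4:**
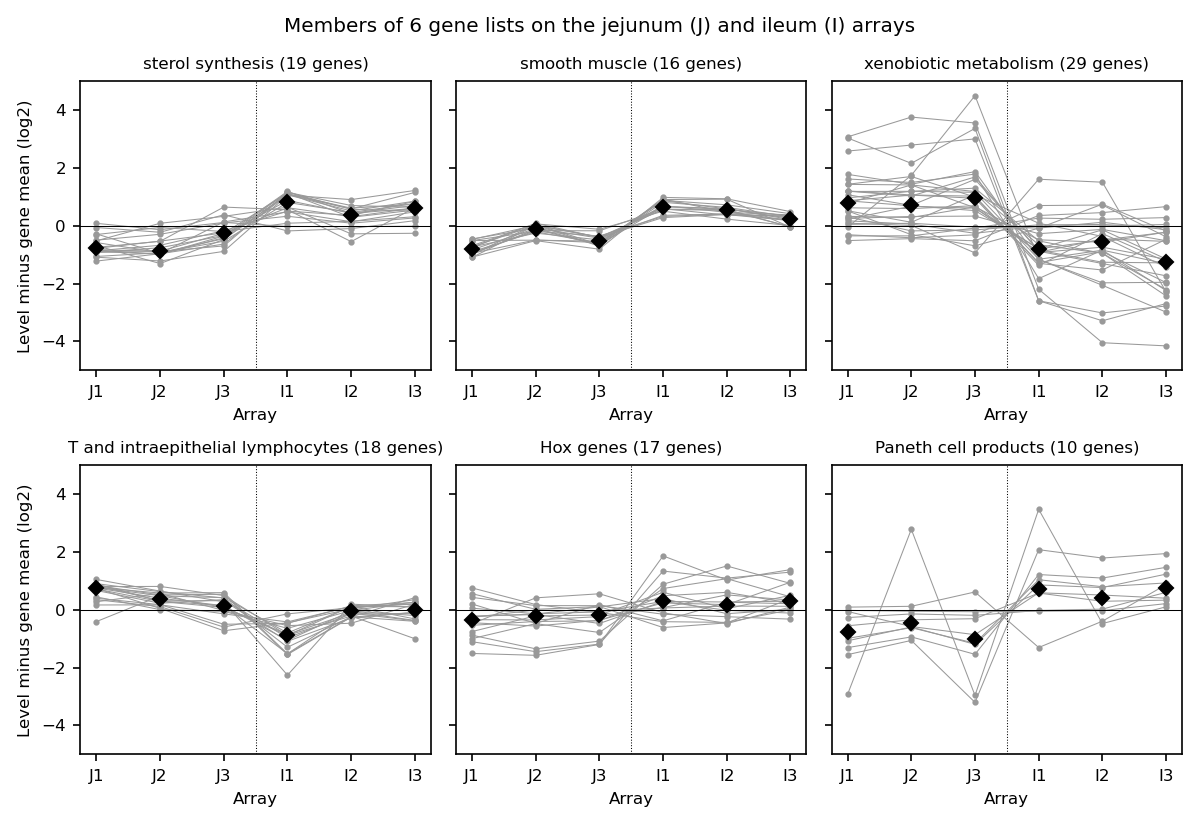
Level of each measured gene of 6 lists on the 3 jejunum (J1 to J3) and 3 ileum (I1 to I3) arrays, as the difference from that gene's mean over the 6 arrays (log2, vertical axis). Grey lines are genes and black diamonds the list's median on that array. Sterol synthesis, smooth muscle, Hox and Paneth genes sit higher on the ileum arrays, xenobiotic genes lower, and T cell genes lowest on ileum array 1.

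Markers of neighbouring tissue were called in both directions. Of 4 measured duodenal genes 1 was higher and 2 lower. Of 12 measured colon and cecum markers, 2 were higher and 3 lower, and 2 of the lower ones fell at least 2-fold. Mptx1, a mucosal pentraxin, led the higher ones with 10.33, 10.73 and 10.45 in jejunum and 12.64, 11.93 and 12.31 in ileum. The other higher one, Insl5, passed the filter only through ileum, so its call gives no support. Of 7 measured fat and blood genes only Cidec, a lipid droplet protein that enterocytes also make, was called, lower by 1.45 ± 0.30 on the log2 scale. The fat hormone Adipoq read 4.20, 5.09 and 4.10 in jejunum and 4.04, 6.54 and 9.34 in ileum, and Car3, an abundant enzyme of fat cells, 4.80, 7.41 and 6.49 against 4.13, 7.96 and 11.43. Both differed among the ileum mice by more than between the segments, ileum mouse 3 was the highest for both, and neither was called. The mean over the list was 7.33 in that mouse, and 4.97 to 6.07 in the other 5. Clock genes, which follow the time of day, had 1 call lower and 0 higher of 16, and immediate early genes, which respond to handling, 2 higher and 0 lower of 17. In interferon response genes 1 of 19 was lower, among nuclear receptors 4 were higher and 2 lower of 31, and among chemokines 2 were higher and 3 lower of 18. Of all genes 17.9% were called. The share was 6.25% for clock, 11.8% for immediate early and 5.26% for interferon response genes, all below it. Nuclear receptors, at 19.4%, were near it, and chemokines stood at 27.8%. With no scaling 8 clock genes, 5 immediate early genes, 3 interferon response genes, 15 nuclear receptors and 8 chemokines were lower, and 0, 0, 0, 1 and 0 were higher. Counts of 1 to 3 in these lists often changed by 1 or 2 when a mouse was left out.

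Neighbouring genes moved together at 7 places. A run was counted where at least 3 consecutive measured genes on a chromosome were called in 1 direction and at least 2-fold, among 13803 genes placed in order. There were 5 lower runs. On chromosome 5 it took in 6 genes, the glucuronyl transferases Ugt2b35, Ugt2b36, Ugt2b5, Ugt2a3 and Ugt2b38 with the sulfotransferase Sult1b1, of which Ugt2a3 differed most (-5.60). On chromosome 3 the alcohol dehydrogenases Adh1 (-3.28), Adh6a (-4.99) and Adh4 (-5.28) formed a run, and the glutathione transferases Gstm7 (-2.20), Gstm6 (-3.75) and Gstm3 (-2.76) another. The steroid and retinol dehydrogenases Rdh16f2 (-2.87), Rdh7 (-4.11) and Hsd17b6 (-4.43) did so on chromosome 10 and the carboxylesterases Ces1e (-1.73), Ces1f (-1.01) and Ces1g (-2.33) on chromosome 8. The 2 higher runs were the serum amyloids Saa3 (1.30), Saa1 (7.71) and Saa2 (2.82) on chromosome 7 and Bex4 (2.85), Tceal8 (2.08), Bex1 (4.09) and Tceal9 (1.56) on chromosome X. All 5 lower runs are enzymes of detoxification or retinoid and steroid metabolism. Most of these genes have near-identical relatives beside them, so probes of 1 may read another, and the values of single members are uncertain. The call of Saa3 was lost without jejunum mouse 1 (0.057) or 2 (0.062).

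Some genes differed more among mice than between segments. The standard deviation over the 3 mice exceeded 1 at 75 probe sets in jejunum and 193 in ileum, with medians of 0.18 and 0.19. Pla2g2a, a secreted phospholipase of Paneth cells, read 7.12, 12.84 and 7.08 in jejunum and 13.53, 9.57 and 10.16 in ileum. St3gal4, a sialyl transferase, read 7.36, 11.75 and 11.70 in jejunum and 12.15, 6.33 and 5.28 in ileum. H2-Q2, an MHC class I gene, read 6.71, 11.44 and 11.66 against 9.68, 6.14 and 5.86. These 3 genes were high in some mice and low in others of both segments, and none was called. The heat shock gene Hspa1a was even in jejunum, with 6.18, 6.33 and 6.33, and uneven in ileum, with 9.96, 11.29 and 6.45. Among called genes, Pla2g4c read 7.51, 4.52 and 4.45 in jejunum and 12.64, 11.62 and 8.28 in ileum, and Gsdmc2 7.63, 5.03 and 4.71 against 12.04, 11.07 and 9.91. In both of them mouse 1 was the highest of its segment, while the lowest ileum mouse still exceeded the highest jejunum mouse. The call of Pla2g4c (5.35 ± 1.26, limma adjusted p = 0.015) was lost without jejunum mouse 2 (0.063) or 3 (0.062) and without ileum mouse 1 (0.055) or 2 (0.057), with the difference still between 4.22 and 6.65 over all alternatives.

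**Figure D5:**
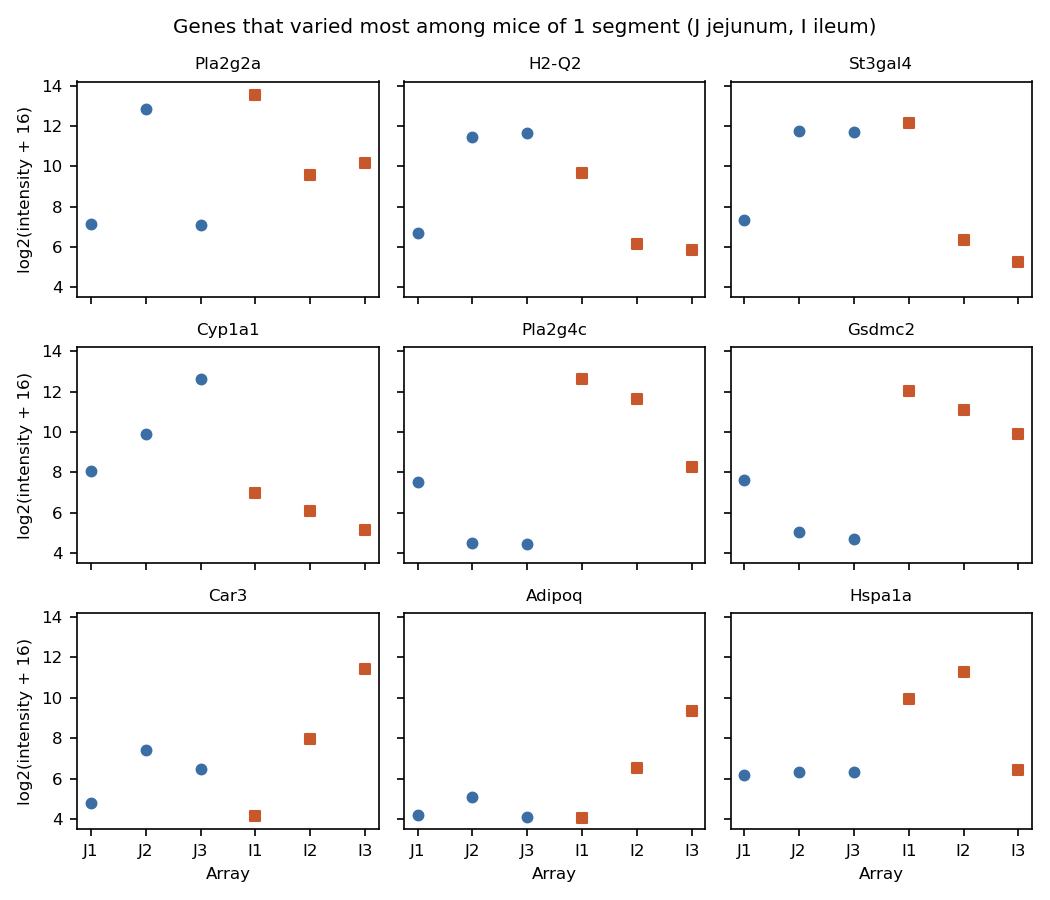
Levels of 9 genes with a large spread among mice of 1 segment (normalized log2(intensity + 16), vertical axis) on the 3 jejunum arrays (blue circles) and 3 ileum arrays (orange squares). Pla2g2a, H2-Q2 and St3gal4 are high in some mice of each segment, Adipoq and Car3 are highest in ileum mouse 3, and Pla2g4c and Gsdmc2 are higher in every ileum mouse than in any jejunum mouse.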

How the data were processed

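RNA of 9 mice was measured on 9 Affymetrix whole-genome mouse arrays. The deposited intensity values are linear, with 1 value for a probe set on each array, and were made with GCOS, the Affymetrix scanner software, per the submitters' processing notes. The sources used here give neither its version nor its scaling. Groups come from the titles. Arrays hold no counts, so the 3 mice per group limit the precision.

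Intensities were turned into log2(intensity + 16) and quantile normalized over 9 arrays, because brightness differed between arrays. A common shift of all transcripts would not show. Probe sets above the 40th percentile (4.95) on at least 3 of 9 arrays were tested, 29307 in all. Of the non-control probe sets 34945 have 1 gene in the platform annotation, 932 several and 9160 none. Identifiers of 34741 matched the RefSeq table. A gene is read from its brightest probe set.

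Differences were tested in limma 3.58.1 (R 4.3.3), two-sided, with all 3 groups sharing 1 estimate of the spread and an intensity trend. With 3 mice a group, the smallest p an exact permutation test allows is 0.1. On simulated data for this comparison with 29307 probe sets, 56 of 100 changes of 2-fold and 96 of 100 changes of 4-fold were recovered, with 9 false calls. No other probe set was changed there, whereas 16.2% were called in the data. The adjustment is stricter where few probe sets change, so these shares need not hold for the real comparison.

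The members, 45 gene lists and tests were chosen with earlier results of these data known. Named are the 15 largest rises and falls among calls whose groups do not overlap, Gata4, members of the lists and runs, and the 10 genes of largest spread in each segment. The features singled out within these lists were chosen after their values were seen. Same-numbered mice were checked for pairing: their deviations correlated at -0.07, 0.05 and -0.04, and the 2 segments came from different animals.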

Additional observations from a re-analysis of the deposited data

How the results depend on the processing

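The counts of calls moved with the scaling. Probe sets higher and lower in ileum numbered 2449 and 2303 as reported, 619 and 10013 with no scaling between arrays, 1543 and 2665 with arrays centred on their medians, and 4214 and 1410 with scaling on the hybridization spikes, an alternative chosen after seeing the data. At 2-fold or more the counts were 700 and 811, against 259 and 2613 with no scaling, 353 and 475 with a pseudocount of 64 and 1018 and 598 on the spikes. Leaving out 1 array at a time gave 1486 to 3106 higher and 1376 to 2848 lower calls, and 605 to 758 and 691 to 880 at 2-fold or more. With the replicate block, which treats same-numbered mice as pairs, 2375 were higher and 2210 lower, but the numbers do not pair the mice. The array weights, variance model, filter, loess, trimmed mean and control-only fits each kept all 4 counts within 1.5 times. Of 307 called members of lists or named genes, 197 kept the call in all 23 alternatives and 10 changed sign in 1. The 3 arrays per segment limit what small differences can show.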
